A study of Mus musculus with 6 samples.

Results

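The genes described here make up the folding and export machinery of the endoplasmic reticulum, the compartment in which secreted and membrane proteins are made. The 40 genes were chosen by function, with earlier results of these data known. They are chaperones, disulfide isomerases, sensors of the unfolded protein response, degradation and translocation components, COPII coat proteins and KDEL receptors. Of these, 38 were read by a probe set carrying 1 gene symbol, out of 22180 such genes on the array. Pdia4 shares its probe set's annotation with a microRNA gene, Fkbp10 had no probe set with 1 symbol, and neither was analysed here.

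RNA came from intact inguinal mammary glands of C57BL/6J mice at 4 weeks of age, tissue that mixes mammary ducts with fat, stroma, vessels and blood-derived cells. The wild-type group, labelled Mt1-mmp(+/+), has 3 biological replicates, and the stromal knockout group, labelled Dermo1Cre/Mt1-mmp(fl/fl), has 3. In the knockout, a Cre recombinase driven from Dermo1 (now Twist2), a locus active in mesenchymal cells, acts on floxed Mt1-mmp (now Mmp14, a membrane-anchored matrix metalloproteinase), and the controls were wild-type littermates. No group is labelled with Cre alone, so Cre and loss of Mmp14 cannot be told apart, and the labels do not say whether a replicate is 1 mouse or a pool. The comparison asks how RNA levels in the whole gland differ between the stromal knockout and the wild type.

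Proteins enter the reticulum through the Sec61 channel, are folded with the help of the Hsp70-type chaperone BiP (Hspa5), of lectins and of disulfide isomerases, and leave in COPII-coated vesicles, while KDEL receptors return escaped chaperones from the Golgi. When unfolded protein accumulates, the sensors IRE1alpha (Ern1), PERK (Eif2ak3) and ATF6 raise the transcription of chaperones and of degradation genes. In the mammary gland this machinery serves matrix-secreting fibroblasts, adipocytes that release adipokines and, in lactation, milk-producing epithelium.

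Much of that transcription runs through short promoter motifs, and those found in 13 of the members are shown first because they are the known response elements of this pathway. RefSeq windows of 300 bases (250 before to 50 after each start, build GRCm38.p6) were held for 32 of the 40 members. They were searched on both strands for the ER stress element ERSE (CCAAT, any 9 bases, CCACG), for ERSE-II (ATTGG, any 1 base, CCACG), for the unfolded protein response element core UPRE (TGACGTGG) and for CARE (TGATGCAAT), an element known to bind ATF4 dimers. ERSE and ERSE-II share CCACG and, read on either strand, CCAAT, and the UPRE core read on the other strand (CCACGTCA) also starts with CCACG. ERSE lay in 8 of the 32 members, against 37 of all 27025 genes with a window (0.137% of genes, 0.119% of windows). The UPRE core lay in 3 members, against 193 of 27025 genes (0.714% of genes, 0.676% of windows), and ERSE-II in 2 members, against 12 genes (0.0444% of genes, 0.0365% of windows). CARE lay in 0 of the 32 members, against 60 of 27025 genes (0.222% of genes, 0.192% of windows), which says only that these letters are not in these windows. Among 116 other genes of the pathway with a window, ERSE lay in 2, ERSE-II in 1, the UPRE core in 8 and CARE in 1. A match is a string of letters in a window and not a measured binding site. The motifs were picked as known elements of this pathway, so these shares describe the members and are no independent test.

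The capitals mark the motif, and each line reads 5′ to 3′ along the gene's own strand. Creld2, Syvn1, Sec24d and Kdelr3 are the matched genes whose RNA differed between the groups, whereas Hspa5 and Hsp90b1 are matched genes that did not pass the test.
Creld2 (ERSE on the opposite strand, chr15:88819509-88819549, + strand): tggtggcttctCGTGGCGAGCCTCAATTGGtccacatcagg
Syvn1 (ERSE, chr19:6046521-6046561, + strand): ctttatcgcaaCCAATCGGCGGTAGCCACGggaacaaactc
Hspa5 (ERSE, chr2:34772014-34772054, + strand): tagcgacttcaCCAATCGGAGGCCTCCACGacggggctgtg
Hsp90b1 (ERSE, chr10:86705627-86705667, - strand): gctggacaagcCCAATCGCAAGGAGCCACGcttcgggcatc
Sec24d (UPRE core, chr3:123267459-123267488, + strand): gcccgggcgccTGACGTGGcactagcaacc
Kdelr3 (UPRE core on the opposite strand, chr15:79516367-79516396, + strand): tggccgccccgCCACGTCAccgcgcggcca

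The motif began 126 bases before the start in Creld2, 44 in Syvn1, 65 in Hspa5 and 212 in the Hsp90b1 copy shown. Hsp90b1 held another ERSE copy, on the opposite strand, that began 107 bases before the start. The core began 26 bases before the start in Sec24d and 30 in Kdelr3. The other members with ERSE were Calr, Canx, Dnajc3 and Pdia6, those with ERSE-II were Herpud1 and Dnajb11, and Sec23a carried the UPRE core just after its start. Of the 8 members with ERSE, 1 rose (Syvn1), 1 fell (Creld2) and 6 did not pass, with a median difference of -0.03 log2 units. Of the 3 with the UPRE core, Sec24d and Kdelr3 fell and Sec23a did not pass, with a median of -0.67. None of the 8 other pathway genes with the UPRE core passed, and their differences ran from -0.27 to +0.46. Of all genes 12.2% passed, and groups of 8 and 3 members are too small to read a share from.

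Signals are log2 values per probe set, and differences are knockout minus wild type on that scale, with the moderated standard error (SE) of limma and Benjamini-Hochberg adjustment over 22180 genes at a threshold of 0.05. Levels of different genes are not compared, since probes differ. Mmp14 itself fell by 2.25 ± 0.17 log2 units (limma adjusted p = 0.000454), and its knockout arrays (8.55 to 8.75) all lay under its wild-type arrays (10.55 to 11.18). Over all genes, arrays of the same group correlated at 0.990 to 0.992 and arrays of different groups at 0.975 to 0.983. The exact two-sided permutation test of 3 against 3 arrays cannot go below 0.1, and each of the 5 members past the threshold gave 0.1. Any gene whose groups do not overlap gives that value, members not called included, so it adds no support to the calls.

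Of the 38 members, 4 fell (Kdelr3, Sec24d, Ern1 and Creld2), 1 rose (Syvn1) and 33 did not pass. That is 13.2% called, against 12.2% of all genes (7.2% lower, 5.05% higher) and 17.6% of the 14874 genes at or above the 33rd percentile of levels (2.68), where every member's mean level lies. The share called is near the background, so the count says nothing particular about these genes. Not passing does not show that a level was the same in both groups, and the 95% intervals below give the differences the arrays leave possible. The differences were small: 26 of the 38 members lay within 0.25 log2 units of 0, and the largest was a 1.65-fold fall. The share within 0.25 was 68.4%, against 58.3% of all genes and 50.9% of the genes at or above the 33rd percentile. The median over members was -0.12, against 0.03 over all genes and 0.003 over the genes at or above that percentile. Below 0 lay 26 members (68.4%), against 45.6% of all genes and 49.7% of the genes at or above that percentile. The array medians over all probe sets were lower in the knockout (3.77 to 3.78) than in wild type (3.85 to 3.89). Centred on array medians, the median over members was -0.04 and that over all genes 0.12. Without knockout 2, the median over members was -0.07. Knockout and wild-type arrays did not overlap for 16 members (42.1%; 11 lower and 5 higher), against 32.7% of all genes (15.4% lower and 17.2% higher) and 41.4% of the genes at or above the 33rd percentile.

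**Figure D1:**
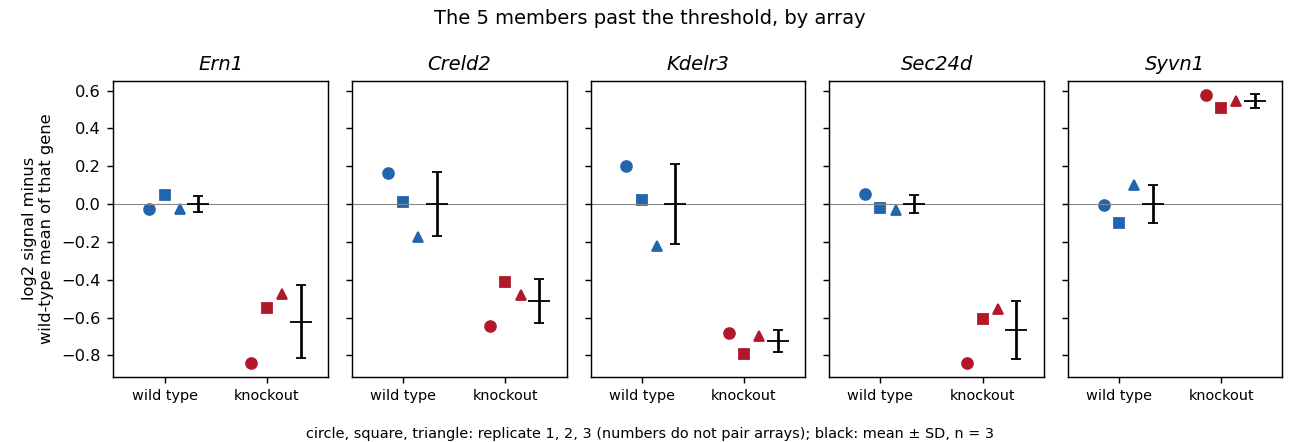
Log2 signal of the 5 members past the threshold in each array, minus the gene's wild-type mean (y axis, log2 units; blue wild type, red knockout; black bars mean ± SD, n = 3). The knockout arrays of Ern1, Creld2, Kdelr3 and Sec24d all lie under, and those of Syvn1 all above, the wild-type arrays.

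The main chaperones of the lumen did not pass. Hspa5, which encodes BiP, read 8.72, 8.79 and 8.63 in wild type and 8.64, 8.52 and 8.66 in the knockout. The groups overlapped, and the difference was -0.10 ± 0.11 (limma adjusted p = 0.611), with a 95% interval of -0.36 to 0.15. Hsp90b1, the reticulum's Hsp90 (GRP94), read 10.96, 10.99 and 10.92 in wild type and 11.03, 10.81 and 10.88 in the knockout, an interval of -0.31 to 0.21. For both, the arrays of the groups were interleaved. Hyou1, a nucleotide exchange factor and Hsp70-like chaperone, differed by -0.13 ± 0.14, and knockout 3 (7.63) was above all wild-type arrays while knockouts 1 and 2 (7.23 each) were below them.

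Creld2, a stress-induced reticulum protein with EGF-like domains, was the only 1 of the 9 measured chaperones and luminal stress-response proteins to pass. It read 8.30, 8.14 and 7.96 in wild type and 7.49, 7.72 and 7.65 in the knockout. All 3 knockout arrays were lower, and the fall was 0.51 ± 0.13 log2 units, to 70.1% of wild type (limma adjusted p = 0.0446). Leaving out any single array ended the call (adjusted p 0.0531 to 0.134), as did centring arrays on their medians (0.0688) and array weights (0.0502). Sdf2l1, which assists BiP in the lumen, had a difference of the same size (-0.54 ± 0.20) but did not pass (adjusted p = 0.133): its wild-type arrays read 5.96, 5.79 and 5.31, and knockout 1 (5.43) lay above wild type 3. Manf, a secreted stress-response factor, differed by -0.24 ± 0.11 (adjusted p = 0.230), with no overlap between groups.

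The J-domain co-chaperones, which drive the BiP cycle, did not pass, and their differences lay on both sides of 0. Dnajb9 (ERdj4) read 8.23, 8.48 and 8.51 in wild type and 8.92, 8.76 and 8.71 in the knockout. All knockout arrays were higher, but the difference of +0.39 ± 0.13 did not pass (limma adjusted p = 0.0947) unless an intensity trend was fitted (0.0299). Dnajc3 (P58IPK) lay lower without overlap (-0.26 ± 0.12, adjusted p = 0.204), and Dnajb11 (ERdj3) differed by 0.02 ± 0.11. The difference of Dnajb11 turned to -0.04 without wild type 3.

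Of the 5 measured lectins and disulfide isomerases, 0 passed in limma and 0 had an unadjusted p under 0.05, and all lay within 0.25 log2 units of 0. Calnexin (Canx) and calreticulin (Calr) hold glycoproteins during folding, and their intervals were -0.17 to 0.36 and -0.31 to 0.26. The difference of Calr was -0.02, and 0.07 with arrays centred on their medians, and that of Canx was 0.09, and -0.03 with quantile normalization repeated. Calr was highest of all 6 arrays in knockout 1 (11.19) and lowest in knockout 2 (10.90). Among the isomerases, Pdia3 differed by -0.14 ± 0.11 and Pdia6 by 0.09 ± 0.11. P4hb, an isomerase that is also the beta subunit of collagen prolyl 4-hydroxylase, read 10.14, 9.89 and 10.03 in wild type and 9.84, 9.78 and 9.81 in the knockout. Its groups did not overlap, but the difference of -0.21 ± 0.12 did not pass (limma adjusted p = 0.291).

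Fkbp14, a prolyl isomerase that acts on collagens, read 6.67, 6.63 and 6.64 in wild type and 6.37, 6.28 and 6.28 in the knockout. The groups were tight and separate, and the difference of -0.34 ± 0.11 missed the threshold (limma adjusted p = 0.0803), passing with low genes left out (0.0450).

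Among the 6 genes of stress signalling, only the sensor Ern1 passed. Ern1 encodes IRE1alpha, the kinase and endoribonuclease that splices Xbp1 mRNA. It read 7.49, 7.56 and 7.48 in wild type and 6.67, 6.96 and 7.03 in the knockout, with knockout 1 the lowest. The fall was 0.62 ± 0.13 log2 units, to 65.0% of wild type (limma adjusted p = 0.0212), and leaving out each array but knockout 3 ended the call (adjusted p 0.0550 to 0.0649). Xbp1, the transcription factor downstream of it, read 9.13, 9.11 and 8.96 in wild type and 9.69, 9.14 and 9.22 in the knockout. All knockout arrays were higher, knockout 1 by far the most, and the difference of +0.29 ± 0.16 did not pass (adjusted p = 0.321). The single Xbp1 probe set gives 1 value for the gene and was not used to tell spliced from unspliced mRNA.

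The other 4 members in stress signalling did not pass. Eif2ak3, which encodes PERK, read 7.33, 7.15 and 7.25 in wild type and 7.09, 6.94 and 7.12 in the knockout. Its knockout arrays were all lower, and the difference was -0.20 ± 0.12 (limma adjusted p = 0.338), while Atf6 differed by 0.07 ± 0.11 (0.759). Atf4, the transcription factor translated when PERK is active, differed by -0.06 ± 0.15, and by 0.03 with arrays centred on their medians. Its pro-apoptotic target Ddit3 (CHOP) read 7.16, 6.83 and 7.10 in wild type and 7.06, 6.62 and 7.03 in the knockout, with the groups interleaved (-0.12 ± 0.16, adjusted p = 0.690).

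Syvn1, which encodes HRD1, the ubiquitin ligase that marks misfolded proteins for degradation, was the only member that rose. It read 7.48, 7.39 and 7.59 in wild type and 8.06, 7.99 and 8.03 in the knockout. The knockout arrays were tight and all higher, a rise of 0.54 ± 0.11 log2 units to 146% of wild type (limma adjusted p = 0.0190). Leaving out knockout 1, knockout 2, wild type 1 or wild type 2 ended the call (adjusted p 0.0559 to 0.0628). Its partner Sel1l, the adaptor that stabilises HRD1, differed by 0.09 ± 0.11 (adjusted p = 0.681), and Herpud1, a stress-induced scaffold of the same complex, by 0.15 ± 0.12 (0.483).

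Of the 5 translocation genes, 0 passed in limma and 0 had an unadjusted p under 0.05. Sec61a1, the channel subunit, differed by -0.18 ± 0.13 (limma adjusted p = 0.418). The translocon-associated subunits Ssr1, Ssr2 and Ssr3 differed by -0.12, -0.03 and -0.15, with Ssr2 at 0.06 when arrays were centred on their medians. Sec61b lay near the bottom of the range (2.81 in wild type and 3.19 in the knockout, with wild type 2 at 2.54, under 2.68), so its difference of +0.38 ± 0.17 may be understated. A further probe set for Sec61b read 1.85 and 2.03, under that level in both groups, and a further one for Ssr1 differed by -0.16.

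Sec24d was the member whose call was the most stable. It encodes a cargo-binding subunit of the COPII coat that is known for its part in collagen export. It read 8.31, 8.23 and 8.22 in wild type and 7.42, 7.65 and 7.70 in the knockout, so the groups lay well apart. The fall was 0.67 ± 0.12 log2 units, to 63.1% of wild type (limma adjusted p = 0.0123), and Sec24d passed under each of 14 other settings, array omissions included (adjusted p 0.00173 to 0.0497).

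Its paralog Sec24a went the other way in value: 8.58, 8.46 and 8.61 in wild type and 8.74, 8.75 and 8.80 in the knockout. The groups did not overlap, but the difference of +0.21 ± 0.11 did not pass (limma adjusted p = 0.272). Within an array, Sec24d minus Sec24a shifted by -0.88 between the groups, and each knockout array (-1.02, -0.80 and -0.80 from the wild-type mean) lay outside the wild-type range of -0.09 to 0.07. This pair was chosen after the values were seen, from 6 pairs built around genes called lower, so it describes the fall of Sec24d again and is no further test. Of the inner-coat subunits, Sec23a differed by -0.13 ± 0.11 without overlap, and Sec23b by 0.01 ± 0.12 with overlap. Mia3 (TANGO1), which loads collagen into COPII carriers, differed by -0.05 ± 0.12, and by 0.04 with arrays centred on their medians. Lman1, a mannose lectin that carries glycoproteins out of the reticulum, read 9.27 to 9.35 in wild type and 8.96 to 9.16 in the knockout. The groups did not overlap, but its difference of -0.27 ± 0.11 did not pass (limma adjusted p = 0.175).

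Kdelr3, the third receptor for the KDEL retrieval signal, had the largest fall of the members. It read 6.67, 6.49 and 6.25 in wild type and 5.79, 5.68 and 5.77 in the knockout, so the knockout arrays were closely spaced and all lower. The fall was 0.72 ± 0.14 log2 units, to 60.6% of wild type (limma adjusted p = 0.0137), and it was lost only without knockout 2 (0.0561). Kdelr1 and Kdelr2 differed by -0.14 ± 0.14 and -0.21 ± 0.16, and neither passed (adjusted p = 0.567 and 0.466).

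**Figure D2:**
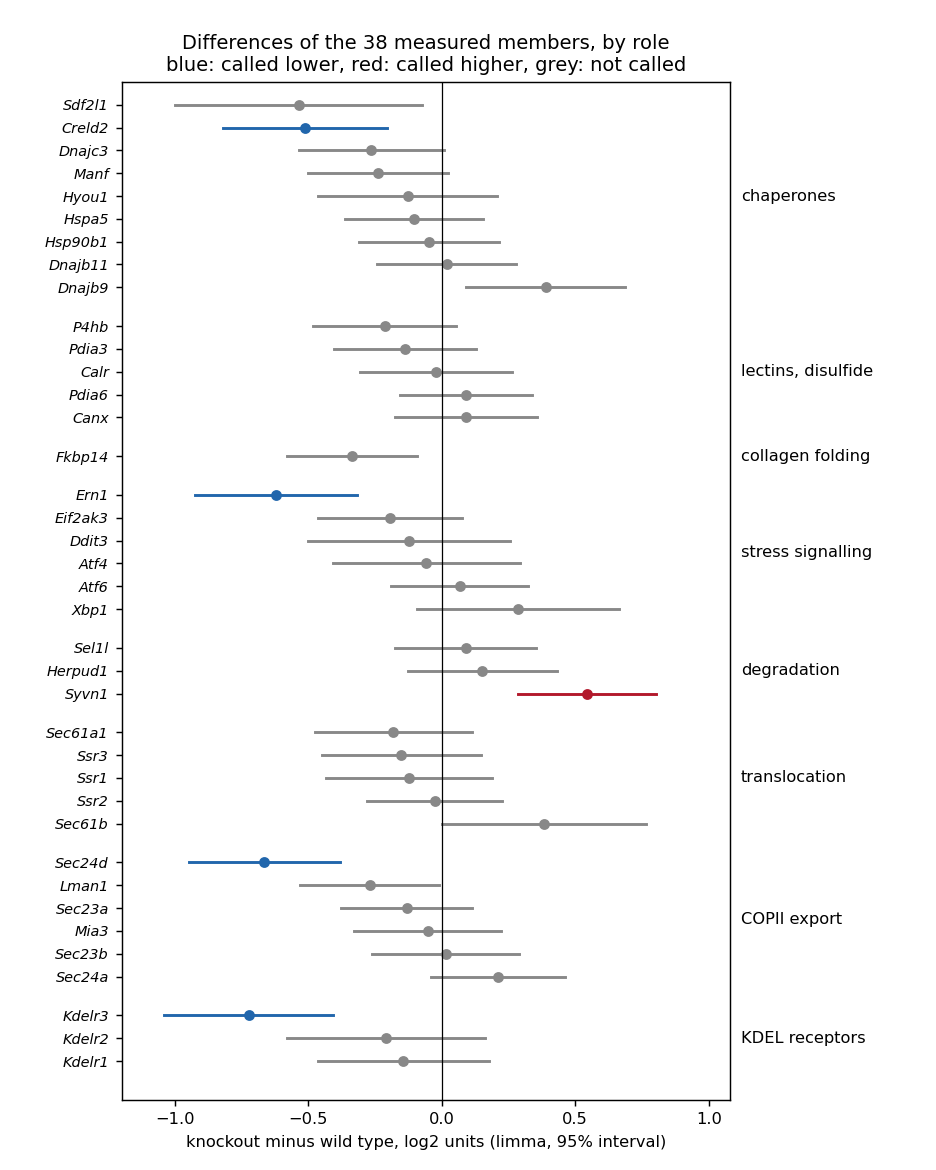
Difference of each of the 38 measured members by role (x axis, knockout minus wild type in log2 units; point, estimate; line, 95% interval from limma; blue called lower, red called higher, grey not called). Most grey intervals cross 0, and among the 33 members not called the bounds run from -0.999 (Sdf2l1) to 0.77 (Sec61b). The signs of Hsp90b1, Calr, Atf4, Ssr2 and Mia3 turn with median centring and that of Canx with quantile normalization repeated.

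The rest of the pathway was described with a list of 134 further genes in the same compartments, of which 130 were measured. Of these, 15 fell, 4 rose and 111 did not pass (14.6% called, against 12.2% of all genes and 17.6% of the genes at or above the 33rd percentile of levels, where all of the 130 but Mia2 lie), with a median of -0.03. By role, the share called ran from 0% (translocation) to 36.4% (stress signalling). The roles hold 6 to 20 genes, too few to read a share from. Centred on array medians, 13 of the 130 fell and 8 rose. Leaving out 1 array left 7 (without knockout 2) to 15 (without knockout 3) called, with 8 without wild type 1, 11 without knockout 1 and 12 without either other wild-type array.

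The largest falls on this list were those of P4ha3 and P4ha2, in collagen prolyl hydroxylation. P4ha1, P4ha2 and P4ha3, the alpha subunits that pair with P4hb, all fell. They were the only 3 of 14 disulfide and hydroxylation genes to pass. That is 21.4%, against 12.2% of all genes and 17.6% of those at or above the 33rd percentile of levels. P4ha3 read 6.60, 7.18 and 6.21 in wild type and 5.12, 4.41 and 3.64 in the knockout. It was well separated though widely spread in the knockout, and fell by 2.28 ± 0.38 log2 units, to 20.6% of wild type (limma adjusted p = 0.00882). P4ha2 fell to 43.8% and P4ha1 to 53.3% of wild type. Of 15 further folding genes, the calcium-binding proteins Rcn1 and Rcn3 fell, to 50.8% and 59.4%, and 13 did not pass. The call of Rcn3 ended without wild type 1 or 3 or knockout 1 or 2 (limma adjusted p 0.0598 to 0.0849). Rcn1 read 9.24, 9.08 and 9.03 in wild type and 8.12, 8.14 and 8.15 in the knockout, the tightest knockout group among the genes called here. Of 6 prolyl isomerases and collagen chaperones, Fkbp11 fell (-0.97 ± 0.23) and Fkbp2 rose (+0.60 ± 0.15). Fkbp11 did not pass without wild type 1 or 2 or knockout 2 or 3 (limma adjusted p 0.0843 to 0.110), nor Fkbp2 without any array other than wild type 2 (0.0630 to 0.112). Serpinh1 (HSP47), the collagen-specific chaperone, differed by -0.42 ± 0.18 (adjusted p = 0.178).

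Of 11 further stress-signalling genes, 4 fell and 0 rose in limma. That is 36.4% called, against 12.2% of all genes and 17.6% of those at or above the 33rd percentile of levels. Another 2 had a higher level at an unadjusted limma p under 0.05. Creb3l1 and Creb3l2 encode membrane-bound transcription factors related to ATF6 and known for driving secretory and collagen genes. Creb3l2 read 8.67, 8.42 and 8.53 in wild type and 7.81, 7.86 and 7.78 in the knockout. The groups were far apart, a fall of 0.72 ± 0.12 log2 units (limma adjusted p = 0.00781). Creb3l1 fell by 0.65 ± 0.15 (adjusted p = 0.0262), and did not pass with knockout 2, knockout 3, wild type 1 or wild type 2 left out (0.0667 to 0.0904). The stress-induced factor Atf3 fell by 0.89 ± 0.11 (adjusted p = 0.00316), and Atf6b, the ATF6 paralog, by 0.43 ± 0.11 (0.0461), the last ended by leaving out any single array (0.0730 to 0.136), by median centring (0.0812) and by repeated quantile normalization (0.0558). Chac1 and Asns, known targets of Atf4, differed by +0.86 ± 0.25 and +0.51 ± 0.16 without passing (adjusted p = 0.0640 and 0.0881). Trib3, also a known target, lay the other way (-0.32 ± 0.20, adjusted p = 0.348). Atf6b, Chac1, Asns, Trib3 and Serpinh1 were named after their values had been seen.

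Protein glycosylation and transport moved in single genes. Of 11 subunits of the oligosaccharyltransferase, which attaches sugar chains in the lumen, Dad1 (-0.69 ± 0.13), Tusc3 (-0.60 ± 0.13) and Ostc (-0.59 ± 0.13) fell and 8 did not pass. The share called was 27.3%, against 12.2% of all genes and 17.6% of those at or above the 33rd percentile of levels. Omitting knockout 2 ended the call of all 3 (limma adjusted p 0.0545 to 0.0938), wild type 1 or 3 or knockout 1 also that of Tusc3 (0.0584 to 0.0737), and wild type 1 or 2 or knockout 3 also that of Ostc (0.0559 to 0.0732). Of 20 COPII and export genes, Sec31b (+0.81 ± 0.21) and Sec24b (+0.44 ± 0.11) rose. Leaving out any single array ended the call of Sec24b (limma adjusted p 0.0685 to 0.111), as did repeated quantile normalization (0.0639), and Sec31b did not pass without wild type 1 or 2 or knockout 1 or 2 (0.104 to 0.125). Mia2 passed as lower but lay under 2.68 in both group means (2.46 and 1.29), where a change cannot be read. Of 16 COPI retrieval genes, the cargo receptor Tmed3 fell (-0.70 ± 0.18), ended by leaving out knockout 1, knockout 2, wild type 1 or wild type 3 (0.109 to 0.122) and with median centring (0.0519). Of 18 degradation genes, Ufd1, which works with the ATPase VCP in extracting substrates, rose (+0.45 ± 0.11), a call that any single omitted array ended (0.0626 to 0.103). Of 19 translocation genes, 0 passed in limma, and 3 had an unadjusted p under 0.05, all lower.

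**Figure D3:**
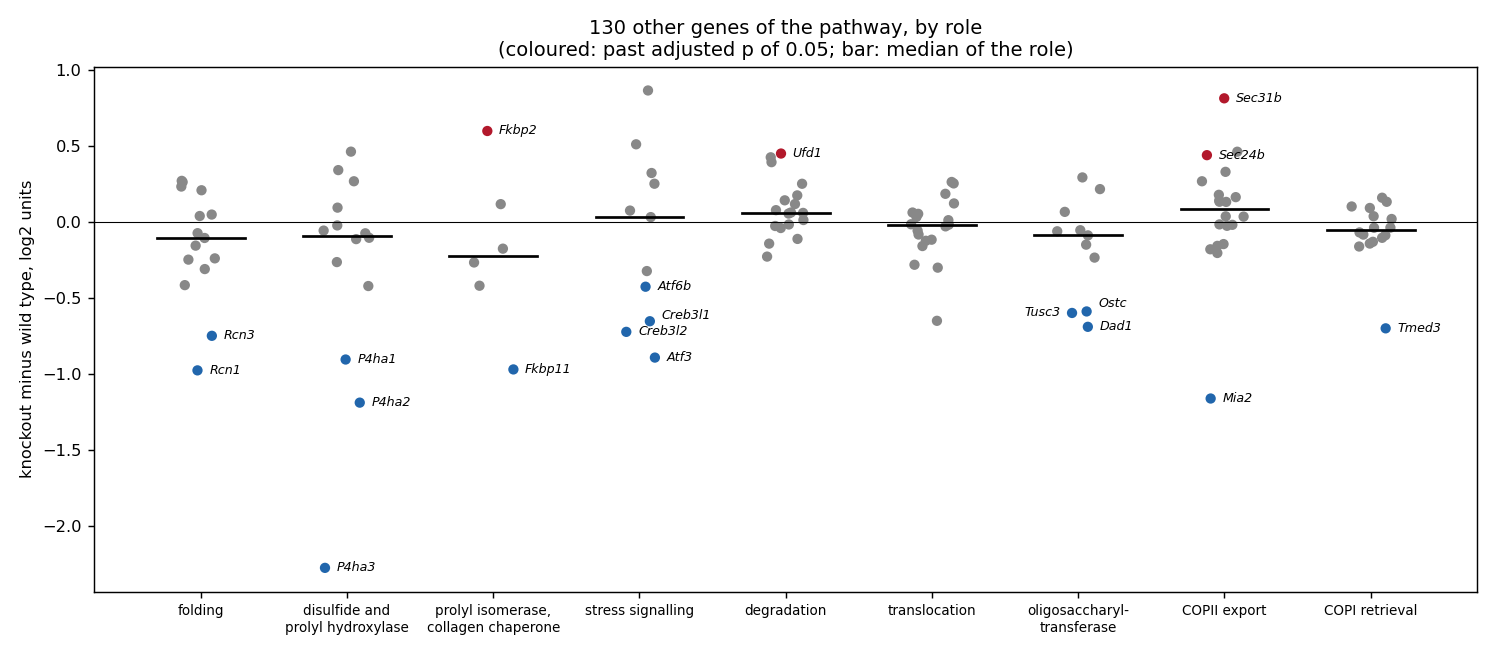
Difference of 130 other genes of the pathway (y axis, knockout minus wild type in log2 units) by role (x axis); each point is a gene, coloured where it passed (blue lower, red higher), and bars are role medians. The lowest points are P4ha3, P4ha2 and Mia2, and translocation has no coloured point.

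**Figure D4:**
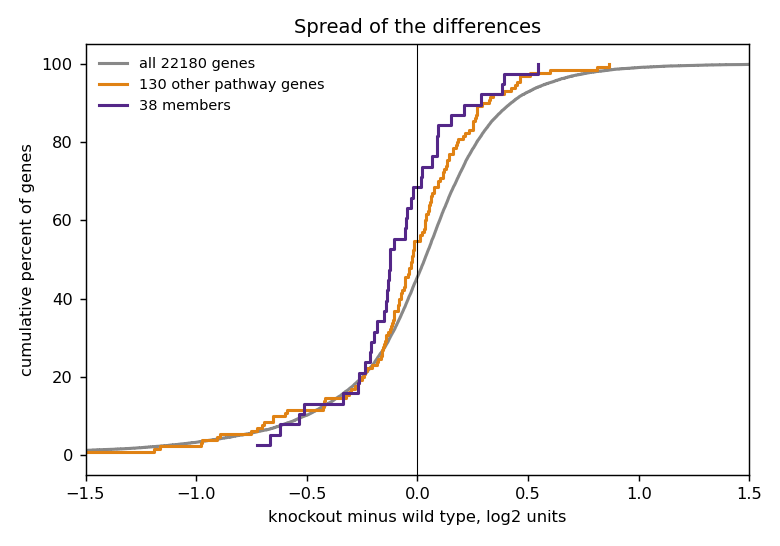
Cumulative percent of genes (y axis) by difference (x axis, knockout minus wild type in log2 units) for the 38 members, the 130 other pathway genes and all 22180 genes. The curve of the members crosses 0 at 68.4% and that of all genes at 45.6%, and the members run from -0.724 (Kdelr3) to 0.543 (Syvn1).

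Markers of the cell types in the gland also differed between the groups, and their part in the results was not tested. All 14 measured luminal epithelial markers fell, and their summed linear signal went from 3330 to 3820 in wild type to 680 to 898 in the knockout. Of 8 basal markers 6 fell (3590 to 4080, then 1940 to 2500). Of 11 fibroblast markers 5 fell (20600 to 24900, then 15800 to 17400), and of 8 macrophage markers 5 fell (3760 to 4310, then 2550 to 2790). Thermogenic adipocyte markers went the other way, with 5 of 8 higher (627 to 2020, then 4240 to 6190), as did 2 of 8 white adipocyte markers (24500 to 24700, then 27700 to 29400). Of 7 plasma and B cell markers, 2 fell (84.1 to 95.7, then 68.1 to 71.8), and Jchain and Ms4a1 were under 2.68 in both groups. Of 12 skeletal muscle markers 0 passed in limma (2 lower at an unadjusted p under 0.05), but their sum reached 1130 in wild type 1 and ran from 132 to 140 in the knockout. Wild type 1 was also the highest wild-type array for 20 of the 38 members, and knockout 2 the lowest knockout array for 19. In whole tissue, fewer cells of a type and less RNA per cell cannot be told apart.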

How the data were processed

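The deposited table holds log2 values for 41345 probe sets in 6 arrays, hybridised from 400 ng of total RNA each. The submitters' processing notes name limma and RMA, which corrects background, quantile-normalizes and summarises probes, without versions. Base 2 was taken from RMA's usual output and the range of the values. Filters and the chip definition were not given in the sources used here. The number of arrays limits the precision.

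The platform annotation gives 23521 probe sets 1 symbol and 1814 several, and 16010 are unnamed here. Per symbol the probe set with the highest mean was kept (22180 genes). Groups were compared in limma 3.58.1 (R 4.3.3; lmFit, then eBayes with no intensity trend). That step was tested on simulated data, where it missed most of the smallest changes put in. Members were described by counts, medians and values, and the exact permutation test was used for single values. All 40 members could be named, and up to 3 called genes per role of the other list. Members and lists were chosen with earlier results of these data known. Same-numbered arrays' deviations from their group means correlated at -0.05 to -0.03, which shows no sign of pairing by number but cannot exclude it. Arrays were therefore treated as unpaired, apart from the replicate block below. Alternatives were a filter on low genes, an intensity trend, array weights, quantile normalization repeated, centring on array medians, other handling of probe sets, a replicate block, leaving out each array, and an adjusted p under 0.1.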

Additional observations from a re-analysis of the deposited data

How the results depend on the processing

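Of the 38 members, 5 passed, and 4 (array weights, median centring) to 7 (adjusted p under 0.1) did under the alternatives other than the replicate block and array omissions. Sec24d, Kdelr3 and Ern1 were the 3 members called with the replicate number as a block, which left 14 calls among the other pathway genes (19 without it) and 1923 among all genes (2717 without it). Without 1 array, 1 to 4 members were called (1 without knockout 2, 2 each without knockout 1 or wild type 1 or 2, 3 without wild type 3), 7 to 15 other pathway genes and 1490 to 2304 of all genes. All genes gave 4090 calls at an adjusted p under 0.1. Median centring turned the split of all calls from 1121 higher and 1596 lower to 1768 and 1333. The median difference of the members, -0.124, was -0.035 with median centring and ran from -0.129 to -0.069 without 1 array.

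The sign of members close to 0 was not stable. Median centring gave 0.041 for Hsp90b1, 0.067 for Calr, 0.030 for Atf4, 0.061 for Ssr2 and 0.035 for Mia3, and quantile normalization repeated gave -0.031 for Canx. Array omissions moved Dnajb11 from -0.042 to 0.060, Calr from -0.115 to 0.033, Atf4 from -0.147 to 0.059, Ddit3 from -0.225 to 0.020, Ssr2 from -0.055 to 0.023, Sec23b from -0.039 to 0.075 and Mia3 from -0.092 to 0.0072. None of these members was called under any alternative. The cause was not tested.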
